A study of Mus musculus with 12 samples.

Results

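Collagens are the secreted or membrane-bound proteins whose 3 chains wind into a triple helix, and 44 mouse genes for such chains were followed here through lung tumours, the lung tissue beside them and sorted alveolar type 2 (AT2) cells. They were chosen by name alone, as the protein-coding genes whose symbol is Col, a type number, a and a chain number. All 44 were present among the 56262 gene identifiers of the lung count table and the 54532 of the AT2 table, which share 21941 protein-coding genes. By the kind of assembly they form, 11 were fibrillar, 9 belonged to basement membranes and 24 were of other types.

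All mice were C57BL/6. Spontaneous lung tumours came from 3 mice (numbers 102, 217 and 224) that lacked Med23, a Mediator subunit, in T cells and were 18 months old. The adjacent normal lung came from the same 3 animals, so it carries the same deletion, and no wild-type lung or tumour was sequenced in the libraries used here. AT2 cells, the surfactant-making epithelial cells of the alveolus, were sorted by flow cytometry at 6 months of age from 3 mice with the T-cell deletion (175, 179 and 191) and from 3 wild-type mice (176, 177 and 190). The sources used here give neither the Cre line that deletes Med23 in T cells nor the markers of the sort. The study set tumour against adjacent tissue to describe the tumours, and knockout against wild-type AT2 cells to look at the epithelium before tumours arise.

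Collagen chains are made in the endoplasmic reticulum, where prolines and lysines are hydroxylated and the helix is wound, and they are trimmed and cross-linked after secretion. Fibrillar types such as I and III give tissue its tensile strength and come mostly from fibroblasts, type IV chains form the sheet under epithelia and endothelia, and other types decorate fibrils, form beaded filaments or span the cell membrane. In the alveolus, epithelium and capillary share a fused basement membrane, in which the common network of the Col4a1 and Col4a2 chains is joined by a network of the Col4a3, Col4a4 and Col4a5 chains.

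The lung libraries held 65163100 to 77951014 counts each and the AT2 libraries 15943084 to 18913242. Med23 itself had 25.9, 18.3 and 36.8 CPM (counts divided by the scaled size of their library) in the tumours of mice 102, 217 and 224, against 29.8, 21 and 31.5 CPM in their adjacent tissue. It had 42.1, 45.7 and 46.5 CPM in knockout AT2 cells, against 40.1, 34.4 and 46.4 CPM in wild-type AT2 cells, and the groups overlapped in both tables, so the gene does not check a deletion that is confined to T cells. Sftpc, a surfactant protein that marks AT2 cells, stood between 69685 and 103247 CPM in the 6 sorted libraries. The list of 8 AT2 markers summed to 140543 to 143471 CPM in knockout and 141349 to 178025 CPM in wild-type cells. Such sums are not particular to sorted cells, since the list reached 223299 CPM in the tumour of mouse 217. The 2 tables were normalised separately, so a level in AT2 cells set beside one in lung tissue is a description. Values are CPM after TMM normalisation, with SD over 3 libraries, unless stated otherwise.

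The summed collagen level of tumours overlapped that of adjacent lung, while single collagens rose or fell. The collagens summed to 3835.6 ± 747 CPM in tumours and 3970.8 ± 661 CPM in adjacent lung (SD, n = 3 each). Of the 38 collagen genes that passed the filter on low counts, 2 rose in tumours, Col15a1 and Col18a1, and 5 fell, Col4a4, Col4a6, Col6a2, Col8a2 and Col23a1 (edgeR quasi-likelihood test, Benjamini-Hochberg adjusted p under 0.05 over all 19995 genes tested). The other 31 did not pass. The 2 that rose were 5.26% of those tested, beside 2.86% of all genes, and the 5 that fell were 13.2%, beside 7.18% of all genes; in either direction 18.4% of the collagens passed, beside 10.0% of all genes. At an unadjusted p under 0.05 stood 19 of the 38, beside 24.0% of all genes.

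The direction leaned downward: 27 of the 38 had a negative log2 fold change, beside 48.1% of all genes, and the median was -1.04, beside 0.04 for all genes. With no TMM factor, only library totals, the all-gene median became -0.18, 2 collagens rose and 9 fell, while the share of higher calls among all genes that passed went to 17.6%, against 28.5% with TMM. In 18 collagens the 3 tumours all lay below the 3 adjacent samples, and in 6 they all lay above, while 18.9% of all genes lay wholly lower and 11.6% wholly higher. Same-numbered samples came from the same animal. With the mouse as a block, 4 collagens rose and 10 fell, where 5.57% of all genes rose and 9.34% fell, 14.9% together. The block added Col10a1 and Col5a3 to the genes that rose, and Col1a2, Col3a1, Col6a1, Col14a1 and Col16a1 to those that fell, and lost none. When the block was joined by a correction for exon length, Col1a2, Col3a1, Col14a1 and Col16a1 no longer passed (adjusted p = 0.0759, 0.0607, 0.066 and 0.057), while Col10a1, Col5a3 and Col6a1 did.

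Of the 7 genes that passed without the block, Col4a6 and Col6a2 passed in all 6 fits that left out a single library. Each of the other 5 missed the threshold in at least 1 such fit, as given beside each gene. The 6 collagens that did not pass the filter on low counts were Col2a1, Col6a6, Col9a1, Col9a2, Col19a1 and Col25a1, all with at most 0.266 CPM in any lung library. In bulk tissue, fewer cells of a type and less RNA per cell cannot be told apart, and this holds for every difference between tumour and adjacent lung below.

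**Figure D1:**
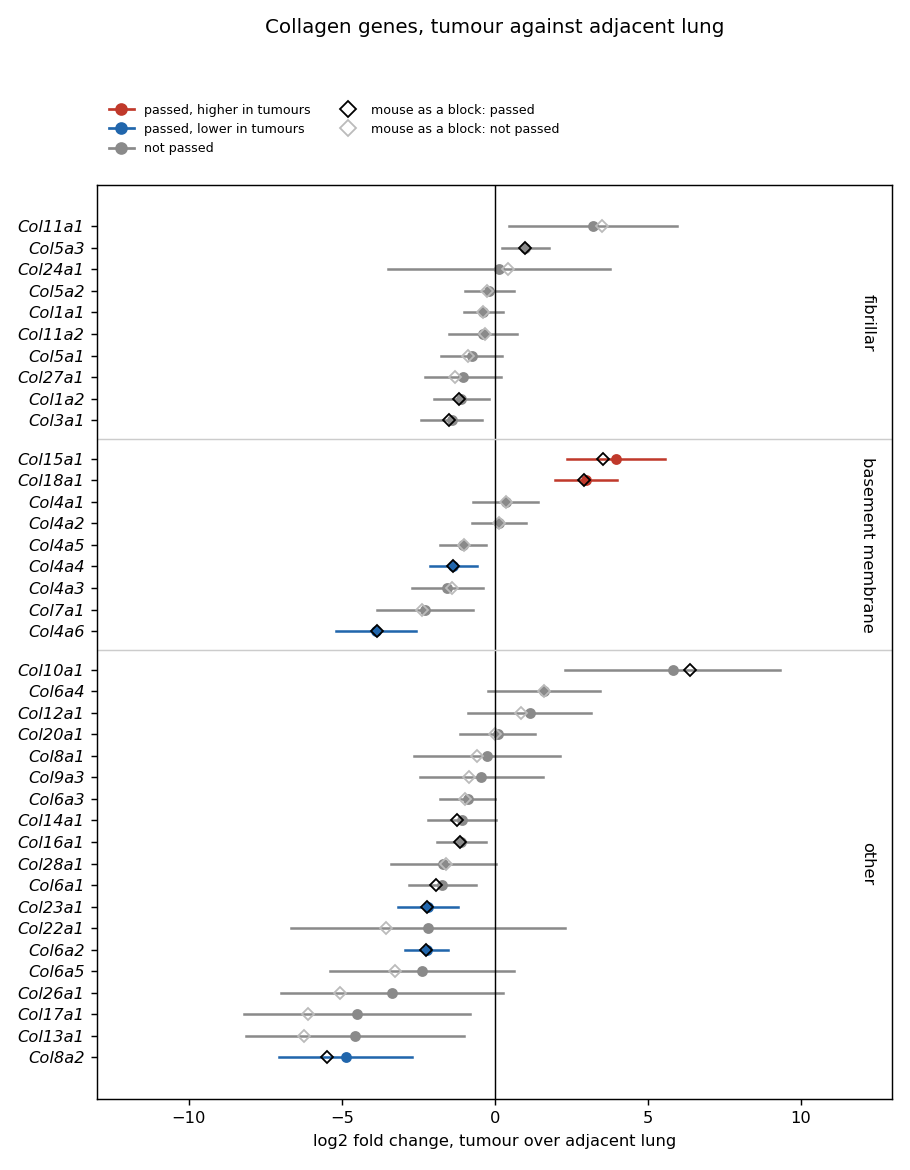
Log2 fold change of tumour over adjacent lung (horizontal axis) for the 38 collagen genes tested, grouped by class and ordered by fold change. Circles and bars are the estimate and its 95% interval in edgeR's test, red where the gene passed higher in tumours, blue where it passed lower and grey where it did not pass; diamonds are the estimates with the mouse as a block, black where they passed. Most circles lie left of 0, while Col15a1 and Col18a1 stand at 3.96 and 2.98.

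Basement membrane types took a larger share of the collagen RNA in tumours, and fibrillar and other types a smaller one. Counted per kb of exon, so that long and short genes can be added, basement membrane collagens made up 73.6%, 70.3% and 82.9% of all collagen RNA in the tumours of mice 102, 217 and 224, against 53.7%, 37.4% and 51.8% in their adjacent lung. Fibrillar collagens made up 16.6%, 21.9% and 12.1% in tumours, against 22.5%, 36.7% and 27.2% in adjacent lung. Other types made up 9.8%, 7.77% and 4.99% in tumours, against 23.8%, 25.9% and 21% in adjacent lung. The groups did not overlap in any of the 3 classes, and each mouse showed the same direction in each class. As plain CPM, fibrillar genes summed to 744 ± 193 in tumours and 1348 ± 116 in adjacent lung, basement membrane genes to 2804.7 ± 651 in tumours and 1867 ± 643 in adjacent lung, and other types to 287 ± 134 in tumours and 756 ± 139 in adjacent lung. The sums of the basement membrane class overlapped between the groups, from 2053.6 to 3197.8 CPM in tumours and from 1176.9 to 2449.0 CPM in adjacent lung. These sums were not tested. Most of the difference in the basement membrane sum lay in Col15a1, with means of 327 CPM in tumours and 21 CPM in adjacent lung, and Col18a1, with 575 CPM in tumours and 72.7 CPM in adjacent lung. The type IV genes summed to 1900.4 ± 536 CPM in tumours and 1762.3 ± 628 CPM in adjacent lung. Of the 9 basement membrane genes, 5 lay wholly lower in tumours and 2 wholly higher, beside 18.9% and 11.6% of all genes. The class median log2 fold change was -1.05.

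**Figure D2:**
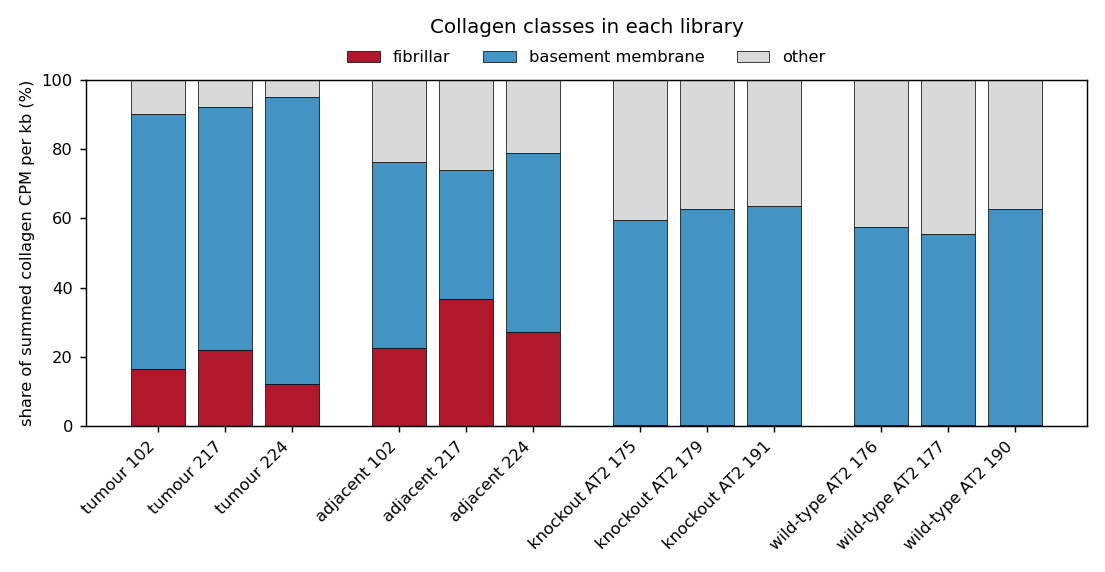
Share of the summed collagen level per kb of exon (vertical axis, percent) taken by fibrillar, basement membrane and other collagens in each of the 12 libraries, 1 bar per library. Basement membrane types took 70.3% to 82.9% in tumours and 37.4% to 53.7% in adjacent lung, and the fibrillar share of the AT2 libraries, 0.235% to 0.373%, is too thin to see.

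Among the fibrillar genes, the partner chains of type I collagen, the main protein of scar and interstitial fibrils, both lay lower in tumours. Col1a1 had 261, 245 and 225 CPM in the tumours of mice 102, 217 and 224, against 296, 305 and 348 CPM in their adjacent lung. Col1a2, the partner chain in the same heterotrimer, had 213, 203 and 93.1 CPM in tumours, against 369, 405 and 318 CPM in adjacent lung. All 3 tumours lay below all 3 adjacent samples for each gene, with the gap wider for Col1a2 and the tumour of mouse 224 the lowest of all. The log2 fold change was -0.37 ± 0.28 (SE) for Col1a1 (edgeR adjusted p = 0.495, 95% interval -1.02 to 0.27). For Col1a2 it was -1.10 ± 0.39 (edgeR adjusted p = 0.127, 95% interval -2.0 to -0.2). Blocked by mouse, Col1a2 passed at an adjusted p of 0.0439 (0.0759 with the length correction too), and Col1a1 did not, at 0.237. Per kb of exon, Col1a1 stood at 2.32, 2.29 and 4.57 times the level of Col1a2 in tumours, against 1.52, 1.42 and 2.07 times in adjacent lung. The ratio was higher in the tumour of each mouse and did not overlap between groups. Neither the ratio nor the difference between the fold changes of the chains was tested. The size of the ratio, though not its direction between the tissues, depends on the annotated exons, 6563 bases for Col1a1 and 12426 for Col1a2. As plain CPM, Col1a2 stood above Col1a1 in adjacent lung, with means of 364 and 316.

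Type III collagen, which accompanies type I in distensible tissue, went the same way. Col3a1 had 237, 221 and 92.7 CPM in tumours, against 427, 606 and 430 CPM in adjacent lung. Its log2 fold change of -1.41 ± 0.43 did not pass without the block (adjusted p = 0.0814) and passed with it (adjusted p = 0.0400), though not with the block and the length correction together (0.0607). Col5a3, a chain of type V collagen, which helps set fibril width, was the only fibrillar gene that passed higher with the block: it had 22.2, 19.8 and 32.1 CPM in tumours, against 12.7, 10.4 and 13.9 CPM in adjacent lung (log2 fold change 1.0 ± 0.33; adjusted p = 0.103 without the block and 0.0422 with it). Col11a1 lay wholly higher in tumours but at only 0.204 to 0.313 CPM, against 0 to 0.0535 CPM in adjacent lung, and did not pass (adjusted p = 0.142). Col5a1, Col5a2, Col11a2, Col24a1 and Col27a1 overlapped between the groups and passed in neither fit. Thus none of the 10 fibrillar genes tested passed without the block. With it 1 rose and 2 fell, beside 5.57% of all genes that rose and 9.34% that fell. Neither fall held with the block and the length correction together.

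Within type IV collagen, the 2 widespread chains did not pass the test while 2 of the 4 minor chains fell. Col4a1 had 1381.7, 652 and 1230.3 CPM in the tumours of mice 102, 217 and 224, against 1189.2, 500 and 857 CPM in their adjacent lung. Col4a2 had 756, 523 and 865 CPM in tumours, against 798, 434 and 727 CPM in adjacent lung. Both overlapped between the groups, with mouse 217 the lowest in either tissue, and neither passed: the 95% interval of the log2 fold change ran from -0.71 to 1.42 for Col4a1 (adjusted p = 0.724) and from -0.75 to 1.01 for Col4a2 (adjusted p = 0.89). Long genes were relatively low in both libraries of mouse 217 (Spearman correlation across 19973 genes of the library's deviation with exon length -0.273 in the tumour and -0.24 in adjacent lung, against 0.101 to 0.257 in the other 4 libraries), and the part of this in its collagen values was not tested. On the group means, Col4a1 and Col4a2 were the most abundant collagens per kb of exon in both tissues. They stood at 146 ± 51.6 and 108 ± 26.4 CPM per kb in tumours and 114 ± 46.2 and 98.7 ± 29.1 CPM per kb in adjacent lung. In the tumour of mouse 217, however, Col18a1 came first at 92.5 CPM per kb, above Col4a1 (87.4) and Col4a2 (79.0).

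The minor chains are those of the alveolar and kidney filter membranes (Col4a3, Col4a4 and Col4a5, whose human counterparts are mutated in Alport syndrome) and Col4a6, which pairs with Col4a5 in smooth muscle and other membranes. Col4a3 had 22.7, 38.2 and 34.5 CPM in tumours, against 148, 39.5 and 91.3 CPM in adjacent lung. The groups were set apart by little, since the adjacent lung of mouse 217, at 39.5 CPM, stood just above the tumour of the same animal; the log2 fold change of -1.55 ± 0.50 did not pass (adjusted p = 0.0948, and 0.156 with the block), and it passed in the fit without that adjacent library (adjusted p = 0.0485). The library kit does not mark strand, so reads of the 563 exon bases (5.649%) that Col4a3 shares with the opposite transcript C430014B12Rik cannot be told apart. Col4a4 had 28.1, 40.9 and 44.6 CPM in tumours, against 108, 71.3 and 110 CPM in adjacent lung.

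All 3 tumours lay below all adjacent samples for Col4a4, and it fell, with a log2 fold change of -1.35 ± 0.33 (edgeR adjusted p = 0.041, and 0.0366 with the block). This call was close to the threshold: without any single library it was lost, at an adjusted p of 0.0593 (without adjacent 217) to 0.136 (without adjacent 224), and at 0.101 to 0.107 without tumour 102, tumour 224 or adjacent 102 and 0.0612 without tumour 217. Correcting for exon length also lost it (adjusted p = 0.0748), as did dropping the filter on low counts (0.0525). Col4a5 was nearly the same in the 3 tumours, at 27.5, 27.3 and 27.2 CPM, against 67.7, 36.8 and 64.6 CPM in adjacent lung. Its log2 fold change of -1.05 ± 0.32 did not pass (adjusted p = 0.0858, and 0.0581 with the block).

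The largest fall among the type IV genes was in Col4a6, which had 1.45, 0.684 and 0.831 CPM in tumours, against 20.5, 7.57 and 15.8 CPM in adjacent lung. On the mean it was 14.8-fold lower in tumours, with a log2 fold change of -3.88 ± 0.57 (adjusted p = 0.0110), and it passed in every fit without a single library (highest adjusted p 0.0426). Set against each other per kb of exon, Col4a3, Col4a4 and Col4a5 together stood at 0.0301, 0.0706 and 0.0396 of the level of Col4a1 and Col4a2 in tumours, against 0.125, 0.122 and 0.130 in adjacent lung. The ratio was nearly constant over the 3 adjacent samples, and all 3 tumours lay below it, that of mouse 217 the least far.

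**Figure D3:**
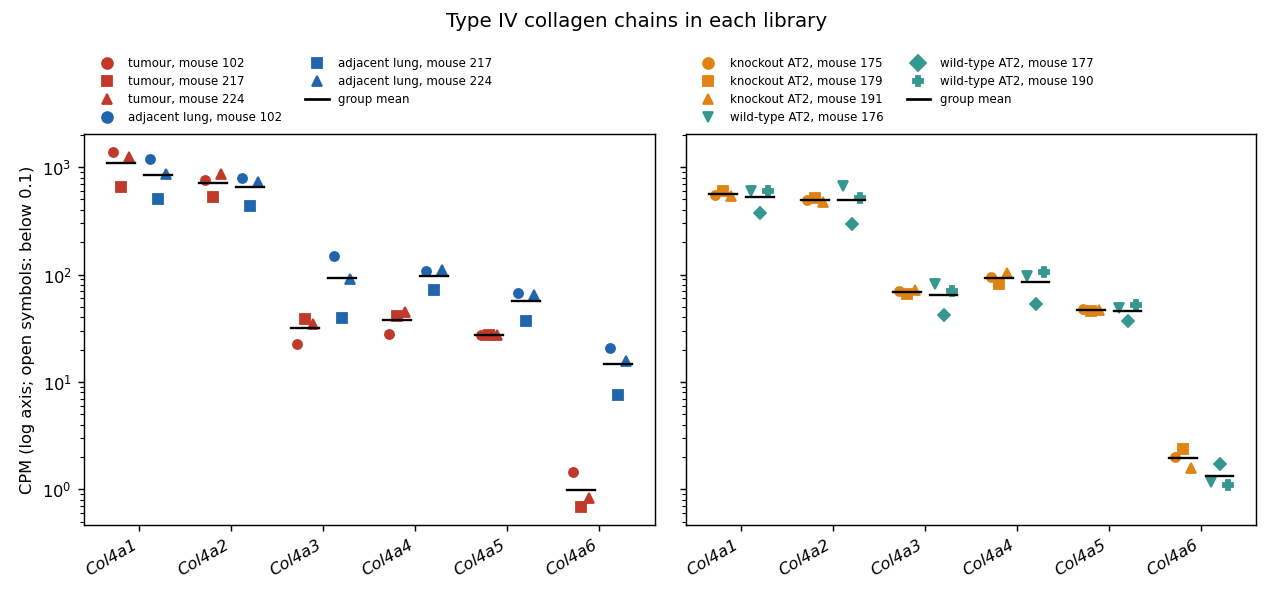
Level of the 6 type IV collagen genes in each library (CPM, log axis), tumours and adjacent lung on the left and knockout and wild-type AT2 cells on the right; symbols mark the mouse and black lines the group mean. Tumours overlap adjacent lung for Col4a1 and Col4a2 and lie below it for the other 4 genes, while the AT2 groups overlap for all 6.

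The 6 type IV genes lie in 3 pairs that start head to head on opposite strands, so the partners of a pair share the DNA between them. Transcription starts are 71 bases apart between Col4a4 and Col4a3, 1308 bases apart between Col4a6 and Col4a5, and overlap by 22 bases between Col4a1 and Col4a2 (GENCODE M21, GRCm38). The 3 windows below, from 250 bases before to 50 after the start, are shown because each covers all or part of the flank shared by a pair, and 2 of them hold the start of the partner gene. They are from RefSeq (GRCm38.p6), 1 per pair, read 5′ to 3′ on the strand of the named gene. They are Col4a4 at chr1:82586800-82587099, Col4a1 at chr8:11312777-11313076 and Col4a6 at chrX:141474027-141474326, all on the minus strand.
Col4a4: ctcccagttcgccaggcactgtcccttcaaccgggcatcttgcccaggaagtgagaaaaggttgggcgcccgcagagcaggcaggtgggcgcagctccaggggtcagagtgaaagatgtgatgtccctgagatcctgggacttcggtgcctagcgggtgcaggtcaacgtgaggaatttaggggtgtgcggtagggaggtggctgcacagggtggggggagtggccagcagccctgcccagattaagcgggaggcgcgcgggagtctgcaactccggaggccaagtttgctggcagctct
Col4a1: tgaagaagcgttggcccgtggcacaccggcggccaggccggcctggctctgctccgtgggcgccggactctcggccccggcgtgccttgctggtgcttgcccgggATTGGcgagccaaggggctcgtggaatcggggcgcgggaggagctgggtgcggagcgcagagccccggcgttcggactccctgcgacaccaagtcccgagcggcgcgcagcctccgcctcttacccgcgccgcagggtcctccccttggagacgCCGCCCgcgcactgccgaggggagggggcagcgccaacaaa
Col4a6: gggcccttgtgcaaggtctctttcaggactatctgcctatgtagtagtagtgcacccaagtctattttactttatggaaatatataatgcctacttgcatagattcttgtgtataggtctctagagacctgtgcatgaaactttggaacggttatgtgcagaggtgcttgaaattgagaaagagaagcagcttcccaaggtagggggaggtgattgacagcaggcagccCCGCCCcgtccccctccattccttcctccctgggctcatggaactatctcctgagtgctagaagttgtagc
Capitals mark the motifs searched on both strands, the CCAAT box (CCAAT, or ATTGG on the other strand) and the GC box (GGGCGG, or CCGCCC), and the TATA box (TATAAA) was searched as well. The window of Col4a4 held none of these letters, that of Col4a1 held 1 CCAAT box and 1 GC box, and that of Col4a6 held 1 GC box. Windows were found for 35 of the 44 collagen genes, 38 windows in all, and Col1a1 and Col4a3 were not among them. A GC box stood in 60.5% of the collagen windows, against 35.7% of all 32851 windows, a CCAAT box in 34.2%, against 37.4%, and a TATA box in 13.2%, against 13.6%. A match is a description of the letters and not evidence of a bound factor. The pair on chromosome 1 lay wholly lower in tumours for both partners, of which Col4a4 passed, and the pair on chromosome 8 overlapped between the tissues for both. The pair on the X chromosome did not share a size of change: Col4a6 was 14.8-fold lower and Col4a5 2.06-fold lower.

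The other basement membrane collagens held the 2 genes that rose. Col15a1 and Col18a1 encode the 2 multiplexins, proteoglycan-like collagens of basement membrane zones, and the end fragment of the Col18a1 protein is endostatin, an inhibitor of vessel growth. Col15a1 (chromosome 4, 47208161 to 47313167) had 675, 119 and 187 CPM in the tumours of mice 102, 217 and 224, against 18.8, 18.3 and 25.8 CPM in their adjacent lung. Col18a1 (chromosome 10, 77052178 to 77166548) had 305, 649 and 771 CPM in tumours, against 89.6, 63.7 and 64.9 CPM in adjacent lung. Every tumour lay well above every adjacent sample for both genes, and the tumour of mouse 102 was the highest for Col15a1 and the lowest for Col18a1. On the means, Col15a1 was 15.6-fold higher, with a log2 fold change of 3.96 ± 0.70 (edgeR adjusted p = 0.0166), and Col18a1 was 7.91-fold higher, at 2.98 ± 0.44 (adjusted p = 0.0111).

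The call of Col15a1 was lost without any one adjacent library, at an adjusted p of 0.068 without that of mouse 102, 0.0585 without 217 and 0.0613 without 224. That of Col18a1 was lost without adjacent 224 (0.0516) and without both libraries of mouse 217 (0.0566). Per kb of exon, Col18a1 and Col15a1 were of rank 3 and 4 among the collagens in tumours, at 81.9 ± 34.4 and 51.5 ± 47.8 CPM per kb, and of rank 9 and 20 in adjacent lung, at 10.4 ± 2.08 and 3.30 ± 0.665 CPM per kb. Col7a1, which builds the anchoring fibrils under stratified epithelia, lay wholly lower in tumours, at 0.824, 3.42 and 2.54 CPM, against 8.86, 5.69 and 18.5 CPM in adjacent lung. It did not pass (log2 fold change -2.28 ± 0.68, adjusted p = 0.0776, and 0.0732 with the block).

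Type VI collagen, which forms beaded microfilaments close to cells and is assembled from Col6a1, Col6a2 and 1 further chain, was lower in all 3 tumours for Col6a1, Col6a2 and Col6a3, of which Col6a2 passed the test. Col6a2 (chromosome 10, 76595762 to 76623630) had 40.8, 32.0 and 25.5 CPM in the tumours of mice 102, 217 and 224, against 174, 150 and 139 CPM in their adjacent lung. The replicates lay close together and far from the other group, and Col6a2 fell, 4.71-fold on the means and by a log2 fold change of -2.23 ± 0.31 (adjusted p = 0.00954); it passed in every fit without a single library, at most at 0.0403. Col6a1 had 123, 49.4 and 37.7 CPM in tumours, against 249, 217 and 222 CPM in adjacent lung, again without overlap, but with the tumour of mouse 102 well above the other 2. Its log2 fold change of -1.71 ± 0.47 did not pass (adjusted p = 0.0625) and passed with the block (0.0304).

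Col6a3, the usual further chain, had 72.6, 32.2 and 81.4 CPM in tumours, against 133, 98.4 and 113 CPM in adjacent lung. It lay wholly lower and did not pass in either fit (log2 fold change -0.89 ± 0.39, adjusted p = 0.222, and 0.0719 with the block). The alternatives to it were scarce: Col6a4 and Col6a5 stayed below 1 CPM in every lung library and did not pass, and Col6a6 was not tested. Col6a4 went against the others and lay wholly higher, at 0.440, 0.907 and 0.466 CPM in tumours, against 0.2, 0.107 and 0.279 CPM in adjacent lung (log2 fold change 1.62 ± 0.79, adjusted p = 0.272). The beaded-filament genes summed to 166 ± 64.1 CPM in tumours and 499 ± 49.3 CPM in adjacent lung. Per kb of exon, Col6a1 was the seventh most abundant collagen in tumours, at 16 ± 10.6 CPM per kb, and the third in adjacent lung, at 52.4 ± 3.86 CPM per kb.

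Among the network-forming collagens, Col8a2, a chain of the type VIII sheets found under endothelium and in the cornea, was very low in tumours. It had 0.455, 2.04 and 0.175 CPM in the tumours of mice 102, 217 and 224, against 38.8, 18.6 and 20.8 CPM in their adjacent lung, 29.3-fold lower on the means (log2 fold change -4.87 ± 0.93, adjusted p = 0.0213). The call was lost without tumour 102 (adjusted p = 0.0758), adjacent 102 (0.0681) or adjacent 224 (0.057). Its partner chain Col8a1 did not follow: it had 44.0, 3.09 and 8.02 CPM in tumours, against 47.9, 9.03 and 8.71 CPM in adjacent lung, with mouse 102 high in both tissues (log2 fold change -0.25 ± 1.03, adjusted p = 0.927). Col10a1, the collagen of cartilage that is turning to bone, was read at 2.07, 0.318 and 1.5 CPM in tumours, against 0.0626, 0 and 0 CPM in adjacent lung. It missed the threshold (log2 fold change 5.82 ± 1.51, adjusted p = 0.0508) and passed with the block (0.0347).

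The 3 transmembrane collagens tested, which sit in the cell membrane and can be shed, lay below adjacent lung in every tumour; the remaining one, Col25a1, had too few counts to test and overlapped. Col23a1 had 14.8, 15.7 and 7.24 CPM in tumours, against 79.4, 44.1 and 47.0 CPM in adjacent lung, 4.51-fold lower on the means. It fell, with a log2 fold change of -2.17 ± 0.42 (adjusted p = 0.0222), and the call was lost without tumour 102 (0.0636), tumour 224 (0.0634), adjacent 102 (0.0725) or adjacent 224 (0.0592), or without both libraries of mouse 217 (0.0548). Col13a1 ranged from 0 to 5.51 CPM in tumours and from 30.7 to 71.3 CPM in adjacent lung, and the spread among the tumours was wide enough that it did not pass (log2 fold change -4.56 ± 1.54, adjusted p = 0.111, and 0.0672 with the block). Col17a1, a hemidesmosome protein of basal epithelium, ranged from 0 to 0.318 CPM in tumours and from 1.42 to 3.12 CPM in adjacent lung (adjusted p = 0.127).

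The fibril-associated collagens, which coat fibrils without forming their own, passed in neither direction without the block. Col14a1 and Col16a1 fell with it, at log2 fold changes of -1.22 ± 0.27 (adjusted p = 0.047) and -1.15 ± 0.24 (adjusted p = 0.0388), and missed the threshold without it, at -1.07 ± 0.47 (0.221) and -1.10 ± 0.34 (0.0893), as they did with the block and the length correction together (0.066 and 0.057). Col12a1 was higher in the tumour than in the adjacent lung of each mouse, with 103, 11.6 and 23.9 CPM in tumours, against 35.6, 6.46 and 20.5 CPM, but the mice differed far more from each other than the tissues did. It passed in neither fit (adjusted p = 0.505 without the block, and 0.119 with it at a log2 fold change of 0.87 ± 0.30). Col9a3, Col20a1 and Col22a1 overlapped between the groups, as did Col28a1, while Col26a1 was lower in each tumour at under 2 CPM (log2 fold change -3.37 ± 1.57, adjusted p = 0.247).

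**Figure D4:**
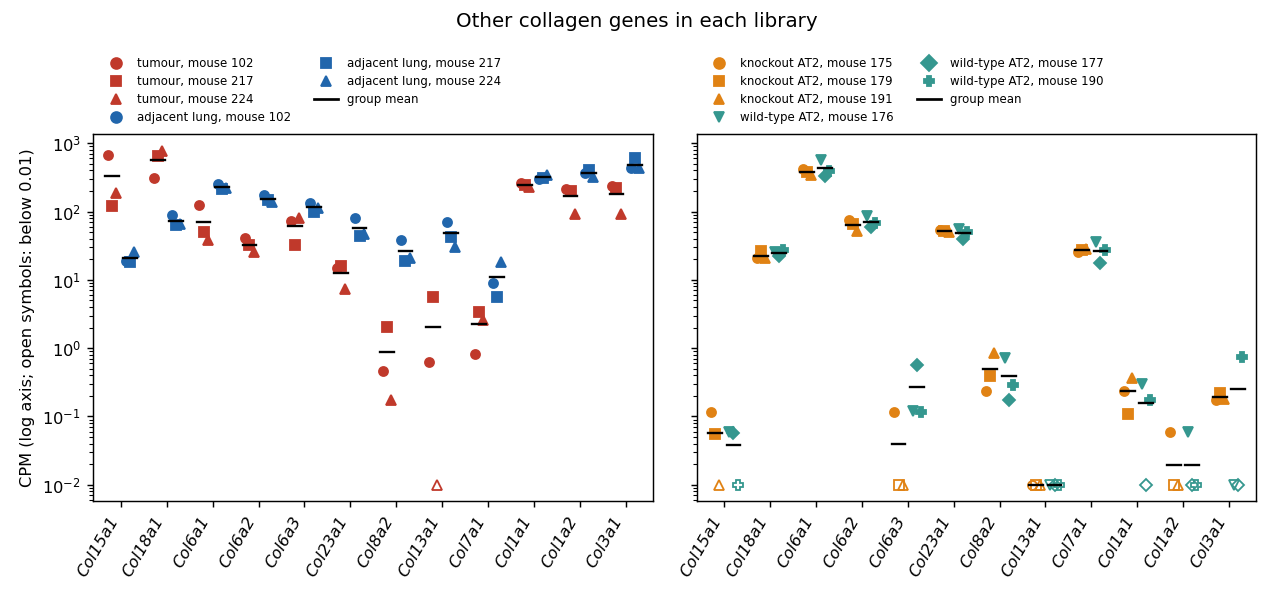
Level of 12 further collagen genes in each library (CPM, log axis; open symbols stand for values below 0.01), tumours and adjacent lung on the left and knockout and wild-type AT2 cells on the right; symbols mark the mouse and black lines the group mean. Tumours stand above adjacent lung for Col15a1 and Col18a1 and below it for the others, and the AT2 groups overlap for every gene read there.

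Markers of the cells that make collagen moved between the tissues as well; their counts stand beside 2.86% of all genes that rose and 7.18% that fell, or 5.57% and 9.34% with the block. Of 12 fibroblast markers, Cthrc1, a secreted protein of matrix-making fibroblasts, rose (23.6 ± 8.02 CPM in tumours and 2.73 ± 0.96 CPM in adjacent lung, log2 fold change 3.11 ± 0.47, adjusted p = 0.0113), Pi16 and Fbln1 fell, and 9 did not pass; with the block 1 rose and 5 fell. The list summed to 264 to 692 CPM in tumours and 1352.7 to 2833.9 CPM in adjacent lung, and all 12 markers were read in every lung library. Cthrc1 is not particular to fibroblasts here, since sorted AT2 cells held it too. There it made up most of a list sum of 15.9 to 19.4 CPM in knockout and 14.2 to 20.8 CPM in wild-type cells. Which cells carried its rise in tumours was not tested. Of 12 endothelial markers 10 fell, Calcrl, Cldn5 and Tek by the largest folds, and the list summed to 803 to 862 CPM in tumours and 3650.5 to 5975.9 CPM in adjacent lung, with none at 0. Of 10 markers of AT1 cells, the flat cells of the alveolar wall, 5 fell, and the list summed to 1527.3 to 2831.7 CPM in tumours and 3438.3 to 4690.7 CPM in adjacent lung.

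Smooth muscle markers fell in 3 of 8, with sums of 81.2 to 274 CPM in tumours and 287 to 1137 CPM in adjacent lung and Myocd at 0 in 2 tumours. Mesothelial markers fell in 3 of 7, with sums of 153 to 212 CPM in tumours and 233 to 397 CPM in adjacent lung, Wt1 at 0 in 2 tumours and Bnc1 in 1. AT2 markers rose in 2 of 8, and in 6 of 8 with the block, with sums of 71558 to 223299 CPM in tumours and 20948 to 41079 CPM in adjacent lung. Airway markers fell in 3 of the 5 tested, with sums of 1003.4 to 2528.4 CPM in tumours and 16223 to 35827 CPM in adjacent lung, and 1 of 8 leukocyte markers, Ptprc, fell. Of 8 cartilage markers only Hapln1 and 1 other were tested, Hapln1 rose, and Snorc and Ucma were at 0 in all 6 lung libraries, beside the low levels of Col10a1 and Col11a1. The part of these cell types in the collagen differences was not tested.

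In sorted AT2 cells the collagens were led by Col6a1, Col4a1 and Col4a2, with type I and III close to 0. None of the collagens passed the test of knockout against wild type. In either genotype 17 of the 44 genes reached a mean of 1 CPM, against 27 in tumours and 30 in adjacent lung. Of the 17, 8 were basement membrane genes, 3 fibrillar and 6 of other types. The share of all genes at that level was not counted, but fewer genes passed the filter on low counts in AT2 cells (14053) than in lung (19995). Basement membrane collagens made up 59.2%, 62.5% and 63.4% of the collagen level per kb of exon in knockout AT2 cells, against 57.3%, 55.3% and 62.4% in wild-type AT2 cells, and fibrillar collagens 0.246% to 0.311% in knockout and 0.235% to 0.373% in wild-type cells. Col1a1 had 4, 2 and 6 counts in the knockout libraries, against 5, 0 and 3 in the wild-type libraries, and Col13a1 was at 0 in all 6. In the same libraries the fibroblast list summed to 15.9 to 19.4 CPM in knockout and 14.2 to 20.8 CPM in wild-type cells, most of it Cthrc1, with Pdgfra at 0 in the 3 knockout libraries and at most 0.115 CPM in the wild-type libraries. Endothelial markers summed to 6.39 to 13.4 CPM in knockout and 5.1 to 8.29 CPM in wild-type cells, and smooth muscle markers to 1.99 to 3.8 CPM in knockout and 2.64 to 3.56 CPM in wild-type cells. AT1 markers summed to 2544.9 to 2679.1 CPM in knockout and 2571.7 to 2913.4 CPM in wild-type cells. Leukocyte markers summed to 27468 to 28859 CPM in knockout and 27333 to 50965 CPM in wild-type cells, nearly all of it Lyz2, which AT2 cells make too, with wild-type mouse 177 the highest, and Ptprc stood at 4.67 to 13.2 CPM in knockout and 4.07 to 6.47 CPM in wild-type cells. The part of these cell types in the AT2 collagen levels was not tested.

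Per kb of exon the most abundant collagen of AT2 cells was Col6a1, at 87.3 ± 9.66 CPM per kb in knockout and 98.1 ± 28.5 CPM per kb in wild-type cells (SD, n = 3 each). As CPM it had 426, 380 and 341 in knockout mice 175, 179 and 191, against 570, 329 and 391 in wild-type mice 176, 177 and 190. Its partners were much lower: Col6a2 had 76.1, 65.6 and 51.1 CPM in knockout cells, against 86.9, 59.9 and 66.8 CPM in wild-type cells, and Col6a3 had 2, 0 and 0 counts in knockout cells, against 2, 10 and 2 counts in wild-type cells. Per kb of exon, Col6a1 thus stood at 10.6, 11 and 12.7 times Col6a2 in knockout cells, against 12.5, 10.4 and 11.1 times in wild-type cells, while in lung tissue the ratio was 5.76, 2.94 and 2.81 in tumours, against 2.72, 2.76 and 3.04 in adjacent lung. The AT2 genotypes overlapped in this ratio. Its size depends on the annotated exons, 4380 bases for Col6a1 and 8326 for Col6a2. As plain CPM the means were 383 for Col6a1 and 64.3 for Col6a2 in knockout cells, against 430 and 71.2 in wild-type cells.

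All 6 type IV genes were read in AT2 cells. Col4a1 had 553, 595 and 539 CPM in knockout cells, against 605, 375 and 596 CPM in wild-type cells. Col4a2 had 497, 520 and 471 CPM in knockout cells, against 663, 297 and 513 CPM in wild-type cells. The libraries agreed closely among the knockout mice, and wild-type mouse 177 was the lowest of all 6 for both genes. Col4a3 had 70.3, 65.6 and 71.4 CPM in knockout cells, against 80.9, 41.6 and 69.7 CPM in wild-type cells. Col4a4 had 94.5, 82.5 and 104 CPM in knockout cells, against 96.8, 52.9 and 105 CPM in wild-type cells. Col4a5 had 48.2, 45.8 and 46.5 CPM in knockout cells, against 49.2, 37.3 and 52.0 CPM in wild-type cells.

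Mouse 177 was again the lowest for these 3 chains, and the genotypes overlapped for each of them. Col4a6 had 1.99, 2.36 and 1.57 CPM in knockout cells, against 1.18, 1.72 and 1.09 CPM in wild-type cells, and overlapped too (log2 fold change 0.57 ± 0.38; 95% interval -0.28 to 1.41). Per kb of exon, Col4a3, Col4a4 and Col4a5 together stood at 0.155, 0.134 and 0.167 of Col4a1 and Col4a2 in knockout cells, against 0.136, 0.155 and 0.157 in wild-type cells. The 6 AT2 values span 0.134 to 0.167, while the tumours span 0.0301 to 0.0706, across tables that were not tested against each other. The 2 genes that rose in tumours were low in AT2 cells: Col18a1 had 20.9, 26 and 20.7 CPM in knockout cells, against 25.7, 22.0 and 27.3 CPM in wild-type cells, and Col15a1 had 2, 1 and 0 counts in knockout cells, against 1, 1 and 0 in wild-type cells. Of the other genes lower in tumours, Col23a1 had 54.2, 52.7 and 50 CPM in knockout cells, against 55.9, 39.2 and 50.3 CPM in wild-type cells, and Col8a2 averaged 0.487 CPM in knockout and 0.388 CPM in wild-type cells.

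Of the 17 collagens tested in AT2 cells, 0 passed in edgeR's test, where 0.0% of all 14053 genes passed, and 0 of the 17 stood at an unadjusted p under 0.05, beside 2.47% of all genes. DESeq2 and limma-voom called 0 of the 17 as well. Log2 fold changes of knockout over wild type ran from -0.43 for Col11a2 (95% interval -1.55 to 0.70) to 0.57 for Col4a6, and the median was 0.10, beside -0.01 for all genes. For the abundant genes the intervals were narrower, from -0.32 to 0.52 for Col4a1 and from -0.61 to 0.27 for Col6a1. All 17 overlapped between the genotypes, while 4.19% of all genes lay wholly higher and 4.11% wholly lower in the knockout. Long genes were relatively low in wild-type mice 176 and 177 (Spearman correlation across 14049 genes of the library's deviation with exon length -0.171 and -0.225, against 0.111 to 0.328 in the other 4 libraries), and collagen genes are long, with a median of 7.54 kb of exon, against 3.51 kb for all genes tested in lung. The part of this in the values of mouse 177 was not tested.

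The enzymes and partners of collagen were read from 5 lists of other genes, 78 in all, of which 75 were tested in lung. In tumours 6 rose and 11 fell, with a median log2 fold change of -0.37, beside 2.86% and 7.18% of all genes, while with the block 13 rose and 17 fell, beside 5.57% and 9.34%, and with scaling by library totals alone 2 rose and 13 fell. Among the 23 genes of synthesis and folding, 2 rose and 1 fell, and the median was 0.18; with the block 7 rose and 2 fell. Creb3l1, a transcription factor that turns on secretory and collagen genes, had 216, 371 and 343 CPM in tumours, against 26.4, 33.8 and 28.4 CPM in adjacent lung (log2 fold change 3.39 ± 0.35, adjusted p = 0.00592), and passed in all 6 fits without a single library. P3h4, a scaffold of lysine hydroxylation, rose at 1.38 ± 0.29 (adjusted p = 0.0274), and Colgalt2, which puts galactose on collagen, fell at -2.19 ± 0.44 (0.0244). Both calls held in 1 of these 6 fits and were lost without tumour 224 or any one adjacent library, P3h4 also without tumour 217 and Colgalt2 without tumour 102, with adjusted p up to 0.111 and 0.0834. The most abundant of the list, Sparc and P4hb, did not pass (adjusted p = 0.865 and 0.117), and P4hb, a subunit of prolyl hydroxylase, passed with the block (0.0399).

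Of 13 tested genes that trim and cross-link collagen, 1 rose and 3 fell, with a median of -1.45, and with the block 1 rose and 5 fell. Bmp1, the protease that removes the tail of procollagens, had 188, 341 and 478 CPM in tumours, against 52.8, 61.1 and 118 CPM in adjacent lung (log2 fold change 2.12 ± 0.48, adjusted p = 0.0338). Adamts14, which removes the front end, fell at -5.87 ± 1.10 (0.0196), as did Pxdn, which cross-links type IV collagen, at -1.60 ± 0.36 (0.0329), and the transglutaminase Tgm2 at -1.45 ± 0.30 (0.0267). Of 9 proteoglycans that bind fibrils 0 rose and 2 fell, Ecm2 at -2.90 ± 0.54 (adjusted p = 0.0188) and Aspn at -2.43 ± 0.62 (0.0491); Aspn was lost with the block (0.0858). Bgn and Prelp, the most abundant of that list, did not pass without the block.

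Of 12 receptors 1 rose, Adgrg1, an adhesion receptor that binds Col3a1 protein, at 1.96 ± 0.42 (adjusted p = 0.0282), and 1 fell, Mrc2, which takes up collagen fragments, at -2.0 ± 0.36 (0.0174), while Itgb1, the shared chain of the collagen integrins, did not pass (0.672); with the block 2 rose and 3 fell. Of 18 other basement membrane genes 2 rose and 4 fell. Lamb3 had 464, 331 and 683 CPM in tumours, against 73.5, 73.6 and 104 CPM in adjacent lung (log2 fold change 2.56 ± 0.39, adjusted p = 0.0114), and Nid2, a linker of laminin and type IV collagen, rose at 1.77 ± 0.40 (0.0340). The 3 largest falls were in the laminin chains Lamc3, at -3.90 ± 0.65 (0.0145), and Lama2, at -2.42 ± 0.60 (0.0445), and in Npnt, at -1.84 ± 0.36 (0.0229). Of these, Creb3l1 and Lamb3 kept their calls without each single library, and each other gene named as changed in these lists lost its call in at least 1 such fit, with highest adjusted p from 0.0563 for Lamc3 to 0.135 for Aspn. Among the genes that rose, knockout and wild-type AT2 cells averaged 609 and 606 CPM for Adgrg1, 358 and 310 for Bmp1, and 353 and 362 for Lamb3. The means were 102 and 84.9 CPM for Creb3l1, 21.7 and 25.1 for P3h4, and 0.129 and 0 for Nid2. The part of AT2 cells in these rises was not tested. In AT2 cells 0 of the 47 genes of these lists that were tested passed in edgeR's test, DESeq2's test or limma-voom. At an unadjusted p under 0.05 in edgeR's test stood 4 of the 47, beside 2.47% of all genes. Of these Mrc2 had the smallest, with 58, 71.5 and 74.4 CPM in knockout cells, against 38.3, 26.4 and 45.1 CPM in wild-type cells, 1.86-fold higher on the means and without overlap (log2 fold change 0.89 ± 0.2). Its adjusted p was 0.984, and without the filter on low counts it passed, at 0.000358; it was singled out after its values were seen.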

How the data were processed

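Poly-A RNA libraries were made with a NEBNext Ultra kit, per the labels' protocols, which does not mark strand. The authors deposited 2 tables of whole-number counts per Ensembl gene, 1 for 6 lung and 1 for 6 AT2 libraries; the submitters' processing notes list HISAT2, StringTie 1.3.3b, Trimmomatic 0.39, DESeq2 1.28.1 and FastQC, and the build GRCm38 (mm10). The sources used here do not give the counting step or its annotation. In the lung table the count 4 occurs 4800 times, against 2352 for 3 and 3124 for 5, so 1 count need not be 1 read there, and no counting intervals are given. Names, coordinates and exon lengths came from GENCODE M21.

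Each table was fitted alone in R 4.3.3 with edgeR 4.0.16 (filterByExpr, TMM, quasi-likelihood test, Benjamini-Hochberg adjustment over all genes, threshold 0.05, group as the only term); standard errors are the absolute log2 fold change over the root of F, and intervals are 95%. The procedure was run on simulated counts that held neither a mouse effect nor a length trend, so that run cannot show how the fits handle either. CPM are counts divided by the library's filtered total and TMM factor, and CPM per kb divides by the union of exons. Ranks, shares and ratios per kb therefore depend on the annotated exons. Tumour and adjacent libraries of 1 number are from 1 animal, and their deviations from the group means correlated across 19956 genes at r = 0.274 (102), 0.458 (217) and 0.364 (224), so the mouse served as a block in an alternative fit. Other alternatives were DESeq2 1.42.0 (its test and its size factors), limma-voom 3.58.1, library totals, no filter, no mouse 217, each library left out, and, chosen after seeing the data, a correction for exon length with and without the block.

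The members and all gene lists were chosen with earlier results of these data known. Values in every library are given for Col1a1, Col4a3, collagens that passed, the 3 highest per kb in each group and their partner chains, and for some others chosen after their values were seen. Of other lists, up to 3 genes passing in each direction by fold and the 2 of highest mean CPM are named. That 3 mice stand for a group limits every test.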

Additional observations from a re-analysis of the deposited data

How the results depend on the processing

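For the collagens that rose in tumours, 2 in the reported fit, the count was 4 with DESeq2's test, with the replicate block, with the exon length correction and with both together, 1 without both libraries of mouse 217, and 0 to 3 without single libraries. For those that fell, 5, it was 11 with DESeq2's test, 10 with the block, 9 with library totals, 8 with limma-voom, 6 with the block and length correction, 4 with the length correction, without the filter or without mouse 217, and 2 to 8 without single libraries. Over all genes, 2007 passed in the reported fit, 2233 with library totals, 2326 with the length correction and 2980 with the block. For the other lung settings no all-gene count is given, so those counts cannot be read as a result about the listed genes. DESeq2's test, limma-voom, library totals and the block each kept all 7 calls and added 8, 4, 4 and 7 genes. The block with length correction added 3. DESeq2's test added Col3a1, Col4a3, Col4a5, Col5a3, Col6a1, Col7a1, Col10a1 and Col17a1. Those added by limma-voom were Col6a1, Col10a1, Col13a1 and Col17a1, and by library totals Col3a1, Col6a1, Col7a1 and Col16a1. Without adjacent 224 only 2 of the 7 remained, Col4a6 and Col6a2, and without adjacent 102 only 3. For the other genes of collagen biology that rose, 6, the count was 11 with DESeq2's test, 13 with the block, 15 with the block and length correction, 2 with library totals, 2 without mouse 217 and 2 to 4 without single libraries. For those that fell, 11, it was 18, 17 and 5 with DESeq2's test, the block and mouse 217 left out, and 1 to 11 without single libraries. No collagen's fold change was reversed under any of these settings among those that passed. In AT2 cells the number of collagens called was 0 under every setting, leave-one-out fits included; over all genes edgeR without the filter called 17, of which Mrc2, a collagen receptor gene, is in the lists used here, and DESeq2 1. No block was possible for AT2 cells, whose mice share no numbers. With 3 mice per group, an adjusted p near 0.05 depends on single libraries, and in AT2 libraries values under 1 CPM are few counts.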
